A study of Mus musculus with 8 samples.

Results

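The genes described here are 9 mouse enzymes of one metabolic route: the cytochrome P450 monooxygenases Cyp2j5, Cyp2j6, Cyp2j9, Cyp2j11, Cyp2j13, Cyp2c44 and Cyp2e1, and the epoxide hydrolases Ephx1 and Ephx2, which act on epoxides of the kind these P450s form. They were chosen by name, and all 9 were among the 15948 genes of the deposited kidney RNA-seq table, where Cyp2c44 is identified by its Ensembl gene ENSMUSG00000025197 (also called Cyp2c23). Whole-kidney mRNA of 8 mouse samples was compared, 5 labelled Sglt2Cre_DOCA (called control) and 3 labelled Arhgef11Sglt2_DOCA (called Arhgef11Sglt2), in a series on a proximal tubule knockout of Arhgef11, which encodes a guanine nucleotide exchange factor, in hypertension and kidney injury. Both groups were labelled with Sglt2 and with DOCA, in this field the mineralocorticoid deoxycorticosterone acetate, so an untreated kidney was not analysed here and the controls carry the Cre as well, as far as their name tells. Sglt2 (gene Slc5a2) belongs to the early proximal tubule, so a Cre driven from it would not act in most other kidney cells. The sources used here do not give the age or sex of the mice, or whether each sample came from a separate animal. The p-values therefore measure the spread between these samples.

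Values are normalized counts obtained by inverting the deposited log2 scale. They summed to between 43039280 and 46676184 per library, with an estimated 33063000 to 59460107 reads behind the control libraries and 51329304 to 57926353 behind the Arhgef11Sglt2 libraries. Arhgef11 itself had 3679.5 ± 161.6 normalized counts in the controls (SD, n = 5) and 3587 ± 564 in those labelled Arhgef11Sglt2 (SD, n = 3), with a log2 difference of -0.04 and a limma adjusted p of 0.834. The gene's whole-kidney value therefore does not check the labels, and each direction below refers to libraries as labelled. A shift in RNA per cell and a shift in the number of cells of a type cannot be told apart in such bulk samples.

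P450 enzymes of the CYP2J and CYP2C subfamilies add an oxygen atom across a double bond of arachidonic acid and so form epoxyeicosatrienoic acids, lipid mediators that dilate vessels and lower sodium reabsorption in the kidney. Soluble epoxide hydrolase, the product of Ephx2, turns these epoxides into diols, and microsomal epoxide hydrolase, the product of Ephx1, acts mainly on foreign epoxides and also on lipid epoxides. Cyp2e1 oxidises ethanol, acetone and other small molecules. P450s of the endoplasmic reticulum hold heme and take electrons from the reductase Por and from cytochrome b5.

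The Cyp2j genes lie side by side on mouse chromosome 4. The 250 bases before the annotated start are shown for 4 of them, because 3 of these genes (Cyp2j5, Cyp2j11 and Cyp2j13) fell in the Arhgef11Sglt2 libraries while Cyp2j9, the neighbour of Cyp2j5, had higher values there. The windows are RefSeq promoter sequences on build GRCm38.p6, minus strand, written 5′ to 3′: chr4:96664120-96664369 for Cyp2j5, chr4:96591486-96591735 for Cyp2j9, chr4:96348681-96348930 for Cyp2j11 and chr4:96077541-96077790 for the more downstream of 2 listed starts of Cyp2j13. Capitals mark AGGTCA, the core motif of many nuclear receptors, which was searched on both strands together with TGTTCT, a core motif of steroid receptors, and GTTAAT, a core motif of the HNF1 factors.
Cyp2j5: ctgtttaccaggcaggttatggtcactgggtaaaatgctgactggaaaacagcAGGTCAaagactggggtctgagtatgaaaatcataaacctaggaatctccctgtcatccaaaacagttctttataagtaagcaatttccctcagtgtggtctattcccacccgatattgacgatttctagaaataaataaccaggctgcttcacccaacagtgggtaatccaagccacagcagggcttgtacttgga
Cyp2j9: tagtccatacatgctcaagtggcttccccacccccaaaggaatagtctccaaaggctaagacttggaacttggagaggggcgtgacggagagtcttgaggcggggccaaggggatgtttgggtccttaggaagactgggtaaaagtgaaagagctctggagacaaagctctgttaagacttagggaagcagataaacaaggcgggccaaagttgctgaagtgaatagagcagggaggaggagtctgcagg
Cyp2j11: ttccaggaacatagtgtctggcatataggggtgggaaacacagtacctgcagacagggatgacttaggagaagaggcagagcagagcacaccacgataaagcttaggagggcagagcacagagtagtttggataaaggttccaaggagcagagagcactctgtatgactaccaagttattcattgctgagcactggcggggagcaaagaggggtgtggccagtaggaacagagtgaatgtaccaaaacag
Cyp2j13: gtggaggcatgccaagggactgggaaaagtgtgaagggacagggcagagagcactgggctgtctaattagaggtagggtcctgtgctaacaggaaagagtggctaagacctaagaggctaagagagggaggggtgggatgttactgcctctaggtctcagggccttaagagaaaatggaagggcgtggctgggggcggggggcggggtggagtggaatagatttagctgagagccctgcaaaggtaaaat
Of these 4 windows, only that of Cyp2j5 held any of the 3 motifs, an AGGTCA at position -197. Among the members with a window (7 of 9; Cyp2c44 and Ephx2 had none), Cyp2j6 held TGTTCT at -193 and at -24, and Ephx1 held it on the opposite strand at -94. In all 32851 windows of the table, 16.1% held TGTTCT, 14% held AGGTCA and 6.43% held GTTAAT. A match describes letters in the window and no more.

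The Cyp2j coding sequences are related but distinct, which bears on how far reads of these genes can be told from each other. Among the 5 Cyp2j members, identity over the aligned coding bases ran from 75.8% (Cyp2j5 with Cyp2j11) to 82.4% (Cyp2j6 with Cyp2j9). The longest identical coding run of any pair, 54 bases in Cyp2j6 and Cyp2j13, and the 41 bases shared by Cyp2j9 and Cyp2j11, a pair whose ratio differed between the groups, are given here from GENCODE vM21 transcripts.
Cyp2j6 and Cyp2j13: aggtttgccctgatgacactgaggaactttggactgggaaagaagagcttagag
Cyp2j9 and Cyp2j11: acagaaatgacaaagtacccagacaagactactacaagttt
The share of a gene's 31-base words that also occur in other genes was 12.35% for Cyp2j11, most of them with the pseudogene Cyp2j7. It was 6.917% for Cyp2e1, 4.285% for Cyp2j9, 3.504% for Ephx1, 3.11% for Cyp2j5, 3.021% for Cyp2j6 and 2.035% for Cyp2j13, and no such word of Ephx2 or Cyp2c44 was shared. Most of each member's sequence was therefore its own.

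Of the 9 members, 3 fell in the Arhgef11Sglt2 libraries in limma at a Benjamini-Hochberg adjusted p of 0.05 over all genes: Cyp2j5, Cyp2j11 and Cyp2j13. No member rose, and 6 did not pass. Of all 15948 genes, 2.22% passed, 0.627% higher and 1.59% lower. In 4 members every Arhgef11Sglt2 library lay below every control library, and in 1, Cyp2j9, every such library lay above. Of all genes, 8.14% had no overlap with lower values and 6.2% had no overlap with higher values. The median log2 difference (Arhgef11Sglt2 minus control) was -0.36 over the members and -0.01 over all genes, and 2 of the 9 members had a positive difference. All 9 had a mean of at least 100 normalized counts, and the lowest value of any member in any library was 398, so no member was near the limit of detection.

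**Figure D1:**
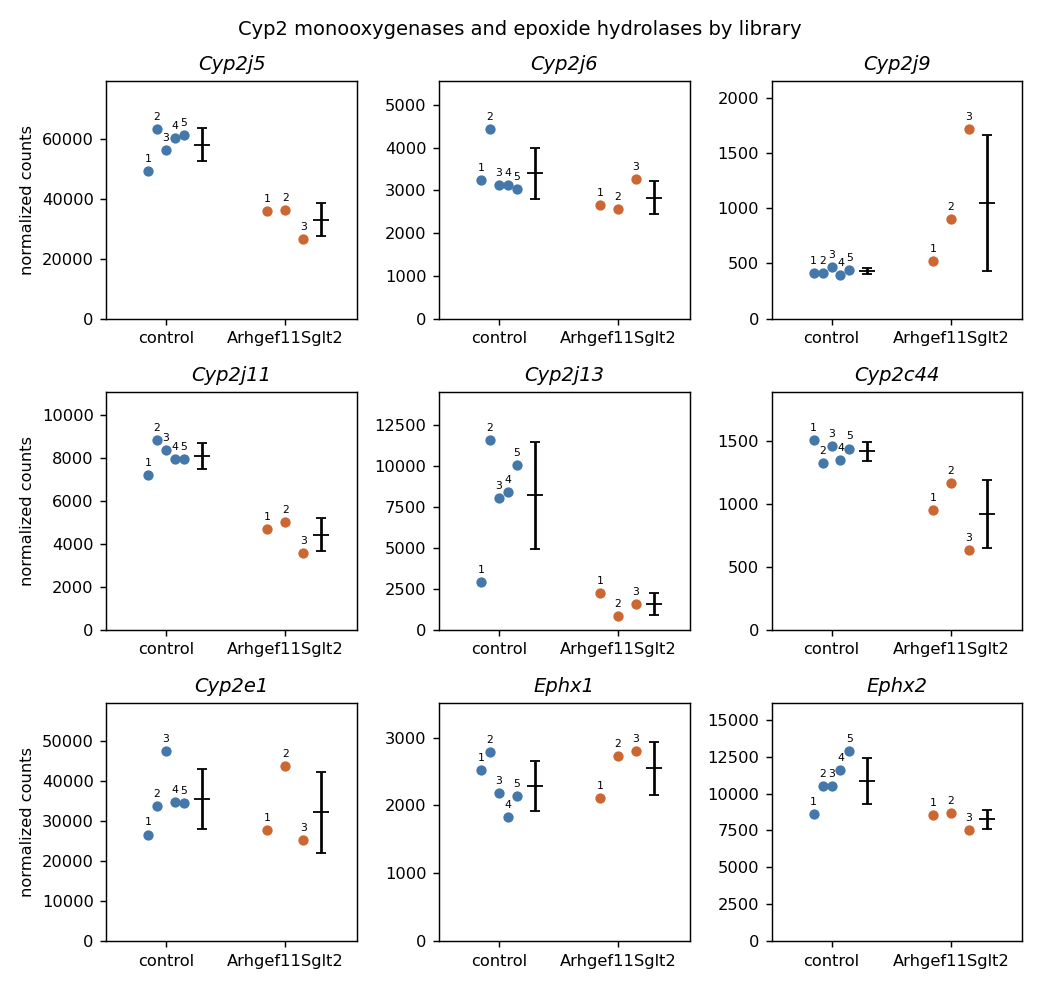
Normalized counts (vertical axis, linear, from 0) of the 9 genes in each library, with replicate numbers beside the points and the group mean ± SD to their right (control n = 5, Arhgef11Sglt2 n = 3). The groups lie apart for Cyp2j5, Cyp2j9, Cyp2j11, Cyp2j13 and Cyp2c44 and overlap for the other 4 genes.

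Cyp2j5 is the main Cyp2j epoxygenase of the mouse kidney and is made in the proximal tubule. It had 49218, 63337, 56167, 60218 and 61148 normalized counts in control replicates 1 to 5 and 35883, 36336 and 26642 in Arhgef11Sglt2 replicates 1 to 3. The lowest control lay well above the highest Arhgef11Sglt2 library, and replicate 3 of that group was lowest of all. The means were 58018 ± 5563 (SD, n = 5) and 32954 ± 5471 (SD, n = 3), a 1.76-fold fall, with a log2 difference of -0.81 (SE 0.13, 95% interval -1.11 to -0.52, limma adjusted p = 0.02). The two-sided exact permutation p was 0.0179, the smallest that 5 against 3 libraries allow. The call was lost without control replicate 4 (limma adjusted p = 0.0635), control replicate 5 (0.0563) or Arhgef11Sglt2 replicate 3 (0.0659), while the direction held.

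Cyp2j11, a less studied member of the same subfamily, fell by about as much. Its normalized counts were 7217, 8841, 8376, 7960 and 7929 in the controls and 4678, 5033 and 3577 in those labelled Arhgef11Sglt2. Again the groups did not overlap and replicate 3 was lowest. The means of 8065 ± 602 (SD, n = 5) and 4429 ± 759 (SD, n = 3) differed 1.82-fold, with a log2 difference of -0.80 (SE 0.11, 95% interval -1.04 to -0.57, limma adjusted p = 0.0147; exact permutation p = 0.0179). Of the 8 fits that left out 1 library, the one without control replicate 4 lost the call (limma adjusted p = 0.0554).

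Cyp2j13, which is known to be higher in male than in female mouse kidney, fell most. Its normalized counts were 2914, 11631, 8087, 8456 and 10061 in the controls and 2237, 870.7 and 1578 in those labelled Arhgef11Sglt2. Control replicate 1 stood far below the other controls and close to Arhgef11Sglt2 replicate 1, although the groups did not overlap. The means were 8230 ± 3288 (SD, n = 5) and 1562 ± 683 (SD, n = 3), a 5.27-fold fall (log2 difference -2.02, SE 0.38, 95% interval -2.86 to -1.18, limma adjusted p = 0.0338; exact permutation p = 0.0179). The call was lost without control replicate 3 (limma adjusted p = 0.0718), 4 (0.0912) or 5 (0.0844), and without Arhgef11Sglt2 replicate 2 (0.067) or 3 (0.113).

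Cyp2c44, an arachidonate epoxygenase of the CYP2C subfamily, had lower values in every Arhgef11Sglt2 library but did not pass. It had 1508, 1324, 1461, 1345 and 1438 normalized counts in the controls and 952, 1166 and 632 in those labelled Arhgef11Sglt2. The controls lay close together, whereas the other group spread widely below them. The means were 1415 ± 78 (SD, n = 5) and 916.9 ± 268.9 (SD, n = 3), with a log2 difference of -0.46 (SE 0.11, 95% interval -0.72 to -0.21, limma adjusted p = 0.0667; exact permutation p = 0.0179). It passed without Arhgef11Sglt2 replicate 2 (log2 difference -0.60, limma adjusted p = 0.0255) and with a block for the range of the library numbers (-0.48, limma adjusted p = 0.0488).

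Cyp2j9, another member of the subfamily and the least abundant of the 9 genes, had higher values in each Arhgef11Sglt2 library. It had 417.2, 416.1, 466.8, 397.7 and 441.2 normalized counts in the controls and 522.3, 900.8 and 1723 in those labelled Arhgef11Sglt2. Every library of that group lay above every control, replicate 1 only slightly and replicate 3 by far the most. The means were 427.8 ± 26.7 (SD, n = 5) and 1049 ± 614 (SD, n = 3), a ratio of 2.45, or 1.66 without Arhgef11Sglt2 replicate 3. The log2 difference of 0.71 (SE 0.20, 95% interval 0.26 to 1.15) did not pass (limma adjusted p = 0.0945; exact permutation p = 0.0179). It passed without Arhgef11Sglt2 replicate 1 (log2 difference 0.98, limma adjusted p = 0.0126) and with a weight for each library (0.67, limma adjusted p = 0.0221).

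Cyp2j6, a Cyp2j enzyme also made outside the kidney, did not pass. It had 3249, 4446, 3117, 3134 and 3030 normalized counts in the controls and 2660, 2557 and 3269 in those labelled Arhgef11Sglt2. The groups overlapped, control replicate 2 stood alone at the top, and Arhgef11Sglt2 replicate 3 lay above 4 of the 5 controls. The log2 difference was -0.22 (SE 0.12, 95% interval -0.49 to 0.05, limma adjusted p = 0.324; exact permutation p = 0.2321).

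Cyp2e1, the ethanol-oxidising P450, was among the most abundant members and differed less between groups than within them. It had 26652, 33772, 47616, 34870 and 34506 normalized counts in the controls and 27666, 43915 and 25234 in those labelled Arhgef11Sglt2. The highest value of each group was far above its others, and the groups overlapped widely. The log2 difference was -0.15 (SE 0.21, 95% interval -0.62 to 0.31, limma adjusted p = 0.714; exact permutation p = 0.4821), an interval that holds falls as large as those of Cyp2c44, and its sign turned with a weight for each library (0.08, limma adjusted p = 0.859).

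The hydrolases did not pass. Ephx2, the soluble hydrolase that removes the epoxides, had 8644, 10544, 10483, 11575 and 12902 normalized counts in the controls and 8568, 8667 and 7510 in those labelled Arhgef11Sglt2. Control replicate 1 lay just under Arhgef11Sglt2 replicate 2, and the other controls lay above that whole group. The means were 10830 ± 1568 (SD, n = 5) and 8248 ± 641 (SD, n = 3), with a log2 difference of -0.36 (SE 0.12, 95% interval -0.62 to -0.10, limma adjusted p = 0.125; exact permutation p = 0.0714). Ephx1, the microsomal hydrolase, had 2521, 2781, 2177, 1831 and 2133 normalized counts in the controls and 2102, 2734 and 2805 in those labelled Arhgef11Sglt2, which overlapped. Its log2 difference was 0.13 (SE 0.12, 95% interval -0.14 to 0.40, limma adjusted p = 0.575; exact permutation p = 0.3571).

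The library numbers in the labels fall into a lower range, with controls 1, 2 and 3 and replicates 1 and 2 of the other group, and a higher range with the remaining 3 libraries. Whether these are batches is not stated. Within each range the log2 differences were -0.62 and -1.17 for Cyp2j5, -0.68 and -1.04 for Cyp2j11, and -1.87 and -2.22 for Cyp2j13. They were -0.32 and -0.77 for Cyp2c44, 0.39 and 1.34 for Cyp2j9, and -0.18 and -0.66 for Ephx2. For these 6 genes the direction was the same in each range, and the difference was larger in the higher one, which holds 1 Arhgef11Sglt2 library. For Cyp2j6 (-0.38 and 0.07) and Ephx1 (-0.04 and 0.42) the sign differed between the ranges, and for Cyp2e1 the values were -0.01 and -0.45.

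Compared per kilobase of transcript, the 9 genes spanned a wide range of levels in the control kidneys. Cyp2j5 had 24741 ± 2372 normalized counts per kilobase and Cyp2e1 20781 ± 4436 (SD, n = 5), and these neighbours were in that order in 4 of the 5 controls. Ephx2 had 5330 ± 772, Cyp2j11 4207 ± 314 and Cyp2j13 2733 ± 1092 on the same scale. The value of Cyp2j13 rests on the mean of its 2 transcript lengths and was 4994 with the shorter one (1648 bases) and 1882 with the longer one (4374 bases), so its place beside Cyp2j11 depends on the transcript. Ephx1 had 1330 ± 214, Cyp2j6 942 ± 164, Cyp2c44 815 ± 45 and Cyp2j9 210 ± 13 per kilobase. The order of neighbours held in all 5 controls except for Cyp2j5 over Cyp2e1 and for Cyp2j13 over Ephx1, each in 4 of 5.

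In the Arhgef11Sglt2 libraries that order changed in places. Cyp2e1 lay above Cyp2j5 per kilobase in all 3 of them, with means of 18900 ± 5948 against 14053 ± 2333 (SD, n = 3). Ephx1 (1481 ± 225) lay above Cyp2j13 (519 ± 227) in all 3, or in 2 of 3 with the shorter Cyp2j13 transcript. Cyp2c44 stayed above Cyp2j9 in 2 of 3. The other neighbours kept their order in all 3.

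Summed per kilobase, the 5 Cyp2j members came to 26827, 36922, 32101, 33705 and 34610 in the controls and 19479, 19562 and 15504 in those labelled Arhgef11Sglt2, with no overlap. Cyp2j5 made up most of that sum in each group, 75.5% ± 1.89 (SD, n = 5) and 77.0% ± 3.25 (SD, n = 3). Cyp2j11 made up 12.9% ± 0.894 and 12.7% ± 0.703. The shares of the minor members differed more: Cyp2j13 made up 8.08% ± 2.66 in the controls and 2.89% ± 1.24 in those labelled Arhgef11Sglt2. With its shorter transcript these shares were 13.8% ± 4.36 and 5.14% ± 2.18, and with its longer one 5.72% ± 1.91 and 2.01% ± 0.869. Cyp2j9 made up 0.647% ± 0.0892 in the controls and 1.32%, 2.26% and 5.45% in Arhgef11Sglt2 replicates 1, 2 and 3. As a description of epoxide-forming against epoxide-removing transcripts, the ratio of summed Cyp2j and Cyp2c44 to Ephx2 per kilobase was 6.51, 7.26, 6.39, 6.05 and 5.58 in the controls and 4.75, 4.74 and 4.29 in those labelled Arhgef11Sglt2. It was lower in each Arhgef11Sglt2 library than in every control, and Cyp2j5 is its largest term.

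Whether 2 members moved by unequal amounts was tested by the log2 ratio between them in each library, for the 10 pairs of Cyp2j members and for Ephx2 with Ephx1, with a two-sided exact permutation test and Benjamini-Hochberg adjustment over the 11 pairs. In 7 pairs the ratio had no overlap between groups, with an exact p of 0.0179 and an adjusted p of 0.0281. These calls held without control replicate 1 and were lost without any other single library (exact adjusted p of 0.0524 to 0.1164). Fewer splits remain once a library is left out, so the smallest possible exact p rises. Without an Arhgef11Sglt2 library, a pair could pass only if all 11 pairs had that smallest p. The losses there therefore do not show that the calls rest on a given library. These ratios are on the deposited log2 scale, which compresses differences of low genes such as Cyp2j9. The ratio of Cyp2j5 to Cyp2j9 fell by 1.52 (log2), and that of Cyp2j9 to Cyp2j11 rose by 1.51. On the scale of log2(normalized count + 1) these differences were -1.95 and 2, and that of Cyp2j9 to Cyp2j13 was 3.49. The ratio of Cyp2j6 to Cyp2j11 rose by 0.58, that of Cyp2j6 to Cyp2j13 by 1.80 and that of Cyp2j9 to Cyp2j13 by 2.72. The ratio of Cyp2j6 to Cyp2j9 fell by 0.93. That of Cyp2j5 to Cyp2j6 fell by 0.59, a call that was lost on the scale of log2(normalized count + 1) (-0.57, exact adjusted p = 0.0561). The ratios of Cyp2j9 and of Cyp2j6 to each of the 3 members that fell thus differed between the groups. For Cyp2j9 this was fixed by the members' own values and adds no further test. Each Arhgef11Sglt2 library lay above every control for Cyp2j9 and below every control for those 3 members. The pairs also share genes, so the 7 calls are not independent.

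Cyp2j5 and Cyp2j11 kept nearly the same ratio in all 8 libraries. Its log2 value ran from 2.67 to 2.86 in the controls and from 2.72 to 2.80 in those labelled Arhgef11Sglt2, a difference of -0.01 (exact permutation p = 0.8393). Cyp2j13 had a larger fall than Cyp2j5 (difference of the log2 ratio 1.20, exact adjusted p = 0.0982) and than Cyp2j11 (1.22, exact adjusted p = 0.1091), but neither difference passed, and the groups overlapped in each ratio. Without control replicate 1, which stood far below the other controls for Cyp2j13, each passed (1.45 and 1.49, exact adjusted p = 0.0349). The ratio of Ephx2 to Ephx1 did not pass either (-0.49, exact adjusted p = 0.1179).

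Along chromosome 4, RefSeq lists the cluster as Cyp2j13, Cyp2j12, the pseudogenes Cyp2j7 and Cyp2j15-ps, Cyp2j11, the pseudogene Cyp2j14-ps, Cyp2j8, Cyp2j6, Cyp2j9 and Cyp2j5, and Cyp2j12, Cyp2j15-ps and Cyp2j14-ps were not among the genes of the table. Genes that fell stood at each end and in the middle of this order. Between them, Cyp2j8 had 10.53, 1.995, 3.925, 8.392 and 5.358 normalized counts in the controls and 5.956, 20.43 and 175.9 in the other group (limma adjusted p = 0.239). Replicate 3 was thus far above the rest for Cyp2j8, as it was highest for Cyp2j9. The pseudogene Cyp2j7 had 43.9 ± 8.24 and 49.0 ± 18.9 normalized counts (limma adjusted p = 0.86), although it shares the most 31-base words with Cyp2j11. Cyp2j9 and Cyp2j5, next to each other, had log2 differences of opposite sign.

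**Figure D2:**
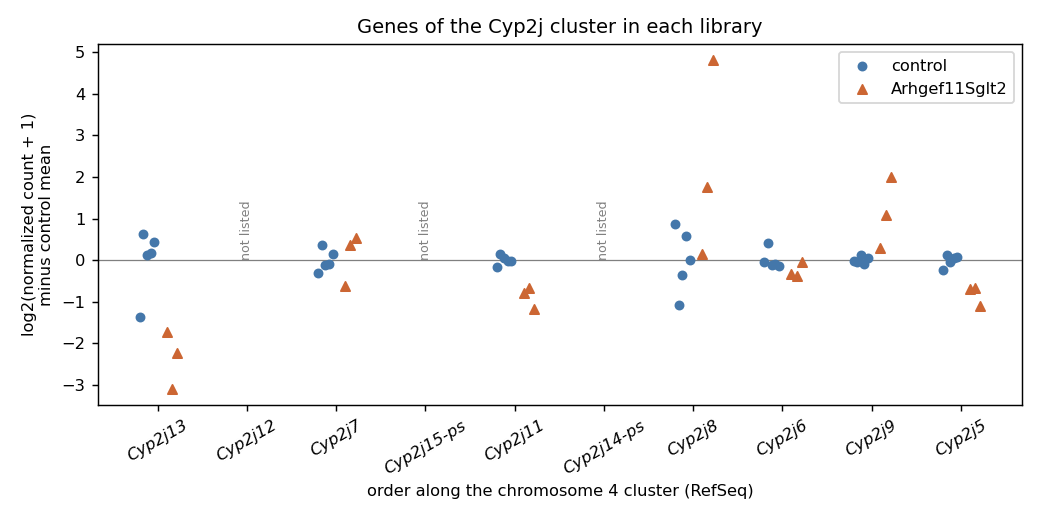
Cyp2j genes in their order along the cluster (horizontal axis, not to distance) with log2(normalized count + 1) relative to the control mean (vertical axis) for each library, circles for the 5 controls and triangles for the 3 Arhgef11Sglt2 libraries. Cyp2j13, Cyp2j11 and Cyp2j5 lie below the controls, Cyp2j9 lies above them, and Cyp2j8 spreads widely at low counts.

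The genes whose library pattern was most like that of a member were sought among 12698 genes with a mean of at least 100 normalized counts, by the mean absolute difference over the 8 libraries of log2(normalized count + 1) relative to the control mean. Cyp2j11 was nearest to Cyp2j5 (0.064, where the median gene had 0.41), followed by Lrp2, the endocytic receptor megalin (0.073), and Ahcyl2 (0.08). For Cyp2j11 the nearest were the steroid dehydrogenase Hsd3b3 (0.052), the mitochondrial aminotransferase Agxt2 (0.062) and Cyp2j5 (0.064), against a median of 0.42. Hsd3b3 had 2362 to 2846 normalized counts in the controls and 1479, 1713 and 1102 in those labelled Arhgef11Sglt2, which is the same order of libraries as in Cyp2j11 within the smaller group.

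Cyp2j13 stood with other genes. Its nearest were the organic anion transporter family members Slc22a28 (0.28) and Slc22a30 (0.283), relatives whose shared sequence was not measured here, and Kap (0.322), the abundant androgen-regulated kidney transcript, against a median of 1.23. Kap had 113909, 229145, 270968, 317382 and 386269 normalized counts in the controls and 120196, 30451 and 63692 in those labelled Arhgef11Sglt2 (limma adjusted p = 0.0587). As for Cyp2j13, control replicate 1 was the lowest control and Arhgef11Sglt2 replicate 2 the lowest library for Kap, Slc22a28 and Slc22a30. A low control replicate 1 was not particular to these genes. It was also the lowest control for Cyp2j5, Cyp2j11, Cyp2e1 and Ephx2. Its log2 values relative to the control mean were -0.23, -0.15, -0.38 and -0.30 there, and -1.23 for Cyp2j13. The nearest genes to Cyp2e1 were Hemk1 (0.113), Abca3 (0.114) and Ints2 (0.122), against a median of 0.31, and those to Ephx2 were Homer1 (0.054), Lama1 (0.057) and Snx27 (0.058), against 0.28. These distances are descriptions, since all genes share the same 8 libraries.

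**Figure D3:**
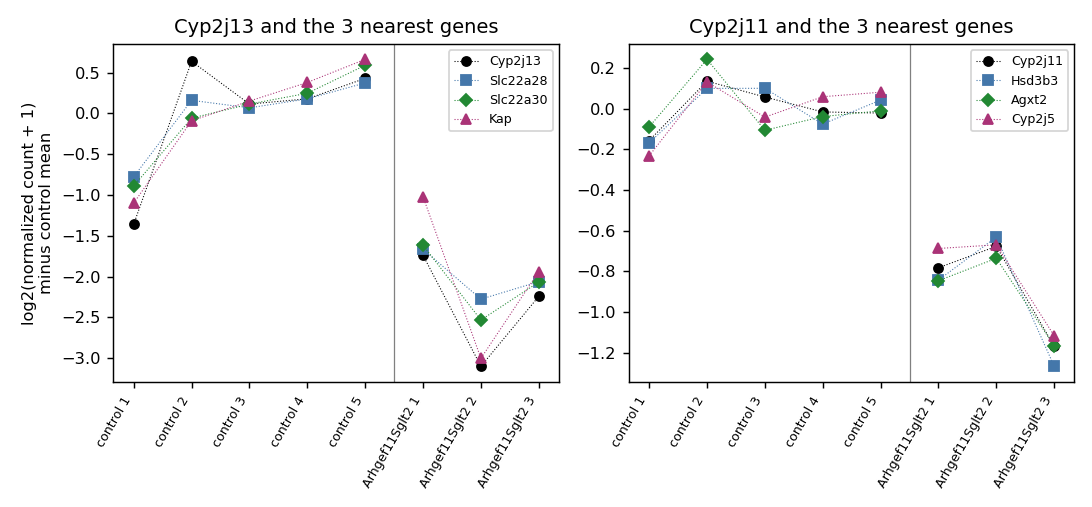
Cyp2j13 (left) and Cyp2j11 (right), each with its 3 nearest genes, as log2(normalized count + 1) relative to the control mean (vertical axis) in each library (horizontal axis). Cyp2j13, Slc22a28, Slc22a30 and Kap are all low in control replicate 1 and lowest in Arhgef11Sglt2 replicate 2, whereas Cyp2j11, Hsd3b3, Agxt2 and Cyp2j5 are lowest in Arhgef11Sglt2 replicate 3. Control replicate 1 is also the lowest control for Cyp2j11, Hsd3b3 and Cyp2j5, by a smaller amount.

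Some marker genes of the tubule segments fell as well, and their part in the differences of the Cyp2j genes was not tested. Of 12 genes of the last proximal tubule segment, 3 fell (Slc22a30, the aminoacylase Acy3 and the amino acid transporter Slc7a13), the median log2 difference was -0.36, and the summed normalized counts were 263738 to 346410 in the controls and 191690 to 224909 in those labelled Arhgef11Sglt2. Slc22a30 and Slc7a13 are also counted in the list of male-biased kidney genes below, so the calls of these lists are not separate. Of 11 early proximal tubule genes, 2 fell, Lrp2 and the phosphate transporter Slc34a1, with a median of -0.38 and sums of 457357 to 501709 and 279503 to 432920. The mean log2 value of these 11 genes relative to the controls was -0.67, 0.07 and -0.56 in Arhgef11Sglt2 replicates 1 to 3, while Cyp2j5 was at -0.68, -0.66 and -1.10 and Cyp2j11 at -0.72, -0.62 and -1.06. In replicate 2 the mean of the early markers thus lay near the control level, but single markers differed in direction. Lrp2, Slc34a1, Gatm and Slc22a6 lay below every control there, and Slc5a12, Slc6a19, Fbp1 and Slc2a2 lay above every control. The other early markers lay among the controls. Slc5a2 had 18544 ± 2557 (SD, n = 5) and 14289 ± 3563 (SD, n = 3) normalized counts (limma adjusted p = 0.214). Single libraries moved the medians: that of the early markers ran from -0.56 without Arhgef11Sglt2 replicate 2 to -0.22 without replicate 1 (-0.25 without replicate 3), and that of the last segment from -0.58 without Arhgef11Sglt2 replicate 1 to -0.24 without replicate 3.

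Of 13 male-biased kidney genes, which include Cyp2j13 and Cyp2e1, 5 fell (Slc22a28, Slc22a30, Cyp2j13, Slc7a13 and the acyl-CoA synthetase Acsm3) and all had a negative difference, with a median of -1.52. Their mean log2 value relative to the controls was -0.80, 0.07, 0.02, 0.19 and 0.52 in control replicates 1 to 5 and -0.89, -1.47 and -1.34 in Arhgef11Sglt2 replicates 1 to 3, so control replicate 1 lay beside Arhgef11Sglt2 replicate 1. Of 6 female-biased genes, 2 rose (Cyp4a14 and the efflux pump Abcc3), with a median of -0.25. What part the sex of the animals had in the values of Cyp2j13, or of any other member including Cyp2j5 and Cyp2j11, was not tested. Cyp2e1, although in the male-biased list, did not pass.

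Other cells that a kidney piece can hold gave low or overlapping values. Of 6 adipocyte markers none passed, with sums of 3 to 2142 normalized counts in the controls and 93 to 1137 in those labelled Arhgef11Sglt2, the higher ones in control replicates 1 and 2 and Arhgef11Sglt2 replicates 1 and 2. The lowest p-values there were those of Lep (limma adjusted p = 0.578) and Retn (0.689). Of 6 adrenal cortex markers only Star was measured (31 to 130 against 58 to 146 normalized counts, limma adjusted p = 0.321). Of 6 hepatocyte markers, 4 were measured and none passed, and albumin (Alb), at 291.9 ± 90.3 and 139.6 ± 20.5 normalized counts, was far below Cyp2e1 (limma adjusted p = 0.101). Apoa1 had 11.5 ± 4.77 and 18.0 ± 4.50 (limma adjusted p = 0.418). The other measured hepatocyte markers were higher and overlapped between groups. Ttr had 4004 ± 1474 and 3080 ± 1452 normalized counts (limma adjusted p = 0.536). Serpina1a had 2073 ± 723 and 2915 ± 2954 (limma adjusted p = 0.92), with 6308 in Arhgef11Sglt2 replicate 1.

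None of 7 endothelial markers (median -0.06; Emcn, limma adjusted p = 0.272, and Ehd3, 0.372), 7 macrophage markers (0.01; Cd163, limma adjusted p = 0.121, and Adgre1, 0.443), 5 collecting duct markers (-0.23; Atp6v1b1, limma adjusted p = 0.0558, and Slc4a1, 0.155) or 5 erythroid markers (-0.10; Hbb-bs, limma adjusted p = 0.823, and Hbb-bt, 0.852) passed. Of 5 thick ascending limb genes, 1 fell, the tight junction gene Cldn10 (limma adjusted p = 0.0476), with a median of -0.40, or -0.23 without Arhgef11Sglt2 replicate 3. Of 8 tubule injury genes, 2 rose, Lcn2 (1976 ± 480 against 6195 ± 1607 normalized counts) and Krt20, with a median of 0.79, or 0.36 without Arhgef11Sglt2 replicate 1. The mean log2 value of these 8 genes relative to the controls was 1.44, 0.51 and 0.39 in Arhgef11Sglt2 replicates 1 to 3, so replicate 1 stood highest. In the same libraries Lcn2 had 7302, 4352 and 6932 normalized counts and Krt20 had 2481, 697 and 626. Among the calls named from these marker lists, Slc22a28 passed in all 8 fits that left out 1 library, and the others were lost in 2 to 7 of them, each without control replicate 4 and without Arhgef11Sglt2 replicate 3. The part of these lists in the members' differences was not tested.

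The 7 genes listed as P450 redox partners were Por, Pgrmc1, Pgrmc2, Cyb5a, Cyb5b, Cyb5r1 and Cyb5r3. Of these, 2 fell, those of the cytochrome b5 forms. Cyb5b, the form of the outer mitochondrial membrane, had 21578 ± 635 normalized counts in the controls (SD, n = 5) and 14401 ± 454 in those labelled Arhgef11Sglt2 (SD, n = 3), with a limma adjusted p of 0.012, and it passed in all 8 fits that left out 1 library. Cyb5a, the form of the endoplasmic reticulum that supports many P450 reactions, had 17566 ± 2021 and 12227 ± 550 (limma adjusted p = 0.0429) and lost its call in 6 of those 8 fits. Por, the reductase itself, had 8795 ± 630 and 9230 ± 1772 and did not pass (limma adjusted p = 0.841). The median log2 difference of the 7 genes was 0.05.

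None of 8 heme synthesis genes passed (median -0.05), with Uros, the uroporphyrinogen synthase, at 813.3 ± 37.5 and 522.8 ± 162.9 normalized counts (limma adjusted p = 0.0751) and Alas1, the first enzyme of the route, at 6044 ± 1380 and 7652 ± 724 (limma adjusted p = 0.249). None of 4 heme breakdown genes passed (median 0.12). Hmox1, the stress-induced heme oxygenase, had 1560, 1027, 1867, 2261 and 1536 normalized counts in the controls and 3067, 2725 and 24144 in those labelled Arhgef11Sglt2 (limma adjusted p = 0.144). Replicate 3 of that group, which was lowest for Cyp2j5, Cyp2j11, Cyp2c44 and Ephx2 and highest for Cyp2j9, was the highest by far here. Blvrb, a biliverdin reductase, had 393.9 ± 66.4 and 460.7 ± 42.0 (limma adjusted p = 0.405).

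The other 18 Cyp2 genes of the table had no call in either direction and a median log2 difference of 0.04. The 4 with the smallest p were Cyp2u1, a fatty acid hydroxylase (386.0 ± 47.5 against 268.8 ± 42.8 normalized counts, limma adjusted p = 0.102), Cyp2d9 (3213 ± 1047 against 5339 ± 950, 0.156), Cyp2a4 (9443 ± 1903 against 6310 ± 2046, 0.169) and Cyp2d22 (1208 ± 289 against 1644 ± 199, 0.178). Cyp2d9, a testosterone hydroxylase, and Cyp2a4, a steroid hydroxylase, each have close relatives, and sequence shared with these was not measured, so their values are uncertain. Set beside these, the 3 calls among the 7 Cyp2 members were all in the Cyp2j subfamily. Whether the members differ from the other Cyp2 genes was not tested.

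**Figure D4:**
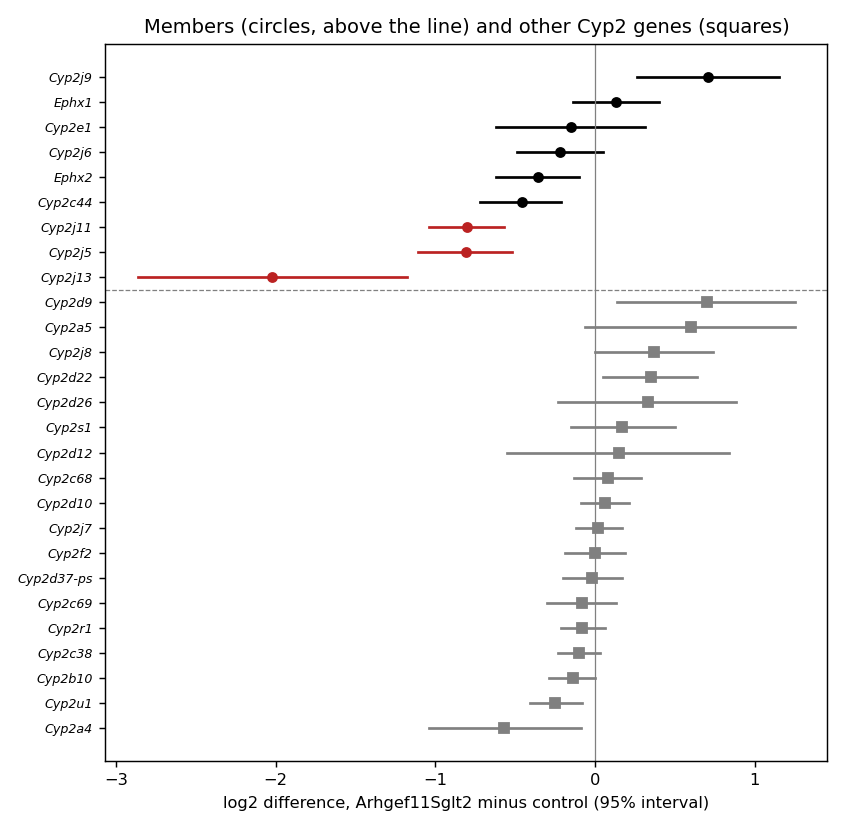
Log2 difference on the deposited scale (horizontal axis, Arhgef11Sglt2 minus control) with its 95% interval for the 9 members (circles, upper part) and the other 18 Cyp2 genes (squares, lower part), with the genes past the threshold in red. Cyp2j5, Cyp2j11 and Cyp2j13 are the genes in red.

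Genes before and after these enzymes in the arachidonate route mostly did not pass. None of 14 measured genes listed under arachidonate release passed (median -0.03; Faah, which breaks down anandamide, limma adjusted p = 0.132, and Pla2g7, a phospholipase, 0.171). Whether the product of each listed gene, Pla2g7 among them, releases arachidonate was not examined. None of 11 genes that return it to lipids passed (median 0.01), where the acyl-CoA synthetases Acsl3 (1573 ± 116 against 1158 ± 195 normalized counts, limma adjusted p = 0.0762) and Acsl4 (4024 ± 220 against 6751 ± 2495, 0.079), the second of which prefers arachidonate, had values on opposite sides. None of 15 cyclooxygenase and lipoxygenase genes passed (median -0.01; the leukotriene synthase Ltc4s, limma adjusted p = 0.107, and the cyclooxygenase Ptgs2, 0.162). Of the other epoxide hydrolases, Ephx3 had 15.0 ± 3.12 and 28.0 ± 7.89 normalized counts (limma adjusted p = 0.19) and the leukotriene A4 hydrolase Lta4h 2007 ± 163 and 1806 ± 225 (limma adjusted p = 0.435).

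The Cyp4 omega-hydroxylases compete for arachidonate and form 20-HETE, or hydroxylate other fatty acids. Of 14 measured Cyp4 genes, 2 rose and 1 fell (median 0.19). Cyp4a14 rose 5.27-fold (limma adjusted p = 0.0466) and Cyp4f17 1.50-fold, from 473.4 ± 48.8 to 710.4 ± 79.8 normalized counts (limma adjusted p = 0.0467). Cyp4f15 fell from 47.9 ± 13.1 to 13.3 ± 6.68 (limma adjusted p = 0.0489). These calls were lost in 6, 6 and 7 of the 8 fits that left out 1 library. Among 9 measured genes that bind fatty acids or respond to the epoxides, Fabp1, the liver-type fatty acid binding protein, rose from 18.1 ± 14.3 to 163.9 ± 94.7 normalized counts (limma adjusted p = 0.036, lost in 6 of 8 fits), and the median was -0.08.

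Of 18 genes listed as regulators of P450 genes, which include the hormone receptors Prlr and Ghr, 1 rose and 1 fell, with a median of 0.04. Nr1i2, which encodes the xenobiotic receptor PXR, had 307.3, 361.0, 296.1, 307.3 and 268.7 normalized counts in the controls and 435.2, 638.4 and 759.2 in the other group (limma adjusted p = 0.0389). It rose 1.98-fold, was higher in 3 of 3 libraries, and lost its call in 6 of the 8 fits. Esr1, the estrogen receptor alpha, had 392.5, 599.9, 413.8, 427.2 and 654.4 in the controls and 294.0, 219.3 and 174.4 in the other group (limma adjusted p = 0.0467, lost in 7 of 8 fits). Of the 8 calls among these pathway genes, all but that of Cyb5b were lost without control replicate 4 and without Arhgef11Sglt2 replicate 3.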

How the data were processed

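Stranded poly(A) libraries of 8 mouse kidney samples were sequenced, per the labels' protocols. The authors used Salmon 1.10.0, DESeq2 and build GRCm39, per the submitters' processing notes, and no source used here gives the annotation. The values deposited are log2 and variance-stabilized, as they themselves show: all 8 columns share the minimum 8.13, the value of a zero count. Inverting the transformation from that minimum gave normalized counts, used for levels and folds. Log2 differences, errors and tests are on the deposited log2 scale, which compresses differences of low genes (median 831.6 normalized counts).

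limma 3.58.1 (R 4.3.3) was fitted with group as the only term, a mean-variance trend, and a Benjamini-Hochberg threshold of 0.05 on p-values adjusted over 15948 genes, with 6 residual degrees of freedom. For single members, exact permutation tests (two-sided) used all 56 ways to choose 3 libraries. The low values recovered no whole reads for most genes (31.37% to 54.35% lay within 0.02 steps of one), so no count model was used; the procedure was tested on simulated data. Symbols matched 15902 identifiers (99.71%).

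The members, lists and tests were chosen with earlier results of these data known. Named genes were all 9 members; of each list the genes past the threshold, otherwise the 2 with the smallest p; of other Cyp2 genes the 4 with the smallest p; and the 3 nearest genes of each called member, Cyp2e1 and Ephx2. Levels per kilobase use the median length of GENCODE vM21 transcripts with an open reading frame of at least 1300 bases. Alternatives covered filter, blocks, variance shrinkage, library weights, pseudocounts of 1 and 10, scaling and each library left out.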

Additional observations from a re-analysis of the deposited data

Results flagged for a closer look

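Single control libraries stood apart from the other 4 for 2 of the 9 genes. Gaps were measured on the deposited log2 scale. For Cyp2j6, control replicate 2 had 4446 normalized counts. Its gap to the next control on the log2 scale was 0.822 of the group's range, above Dixon's critical value of 0.71 for 5 samples. For Cyp2j13, control replicate 1 had 2914 normalized counts, and its gap on the log2 scale was 0.727 of the range. In normalized counts that gap is a smaller part of the range and lies below the critical value. Chance gives about 1 such gap in 20 groups.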

How the results depend on the processing

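The calls of Cyp2j5, Cyp2j11 and Cyp2j13 held in every setting that kept all 8 libraries except the replicate block. Samples with the same replicate number did not deviate together (correlations -0.175, -0.088 and -0.007), so the numbers do not pair them. Control replicates 4 and 5 have no Arhgef11Sglt2 library of the same number, so they did not inform the group difference under that block. Fewer residual degrees of freedom remained there than in the main fit. With the replicate block, limma called 0 genes, 0 higher and 0 lower, among them 0 members and 0 pathway genes, at a lowest adjusted p of 0.189, while 2166 genes and 5 members had an unadjusted p under 0.05. Cyp2j5 then had -0.77 (adjusted p = 0.209), Cyp2j11 -0.81 (0.189) and Cyp2j13 -1.84 (0.27). With a weight for each library, limma called 874 genes (344 higher, 530 lower) and 18 pathway genes, Cyp2j9 passed (0.67) and Cyp2e1 changed sign (0.08). With a block for library number range, 5 pathway genes passed and Cyp2c44 passed (-0.48). Scaled to equal totals, the split of calls went from 100 higher and 254 lower to 149 and 178. On the scales with pseudocounts 1 and 10, the difference in the Cyp2j5 to Cyp2j6 ratio was -0.57 and no longer passed, and that of Cyp2j5 to Cyp2j11 changed sign (0.05). The filter on a mean of 100 normalized counts left no adrenal marker. The cause was not tested.

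Leaving out 1 library gave 24 to 1334 called genes, with 4 to 578 higher and 20 to 756 lower: 24 without control replicate 4, 45 without Arhgef11Sglt2 replicate 3, 76, 135 and 187 without control replicates 5, 3 and 1, and 1334 without Arhgef11Sglt2 replicate 1. It gave 0 to 4 called members (0 without control replicate 4, 1 without control replicate 5 or Arhgef11Sglt2 replicate 3) and 1 to 21 pathway genes, where all 8 libraries gave 8. Log2 differences ran from -0.89 to -0.67 for Cyp2j5 and for Cyp2j11, -2.33 to -1.75 for Cyp2j13, -0.6 to -0.3 for Cyp2c44, 0.4 to 0.98 for Cyp2j9, -0.31 to -0.13 for Cyp2j6, -0.39 to 0 for Cyp2e1, 0.07 to 0.24 for Ephx1 and -0.44 to -0.3 for Ephx2. The ratios of group means ran from 0.539 to 0.622 for Cyp2j5, 0.512 to 0.602 for Cyp2j11, 0.149 to 0.232 for Cyp2j13, 0.56 to 0.749 for Cyp2c44, 1.66 to 3.07 for Cyp2j9, 0.768 to 0.903 for Cyp2j6, 0.745 to 1.01 for Cyp2e1, 1.06 to 1.21 for Ephx1 and 0.725 to 0.8 for Ephx2. Differences in log2 ratio ran from -0.73 to -0.36 (Cyp2j5 to Cyp2j6), -1.86 to -1.07 (Cyp2j5 to Cyp2j9), -0.04 to 0.01 (Cyp2j5 to Cyp2j11), 0.86 to 1.45 (Cyp2j5 to Cyp2j13), -1.17 to -0.71 (Cyp2j6 to Cyp2j9), 0.36 to 0.73 (Cyp2j6 to Cyp2j11), 1.58 to 2.09 (Cyp2j6 to Cyp2j13), 1.07 to 1.82 (Cyp2j9 to Cyp2j11), 2.45 to 3.23 (Cyp2j9 to Cyp2j13), 0.86 to 1.49 (Cyp2j11 to Cyp2j13) and -0.63 to -0.37 (Ephx2 to Ephx1). Without control replicate 1, 9 of the 11 pairs passed, each at an exact adjusted p of 0.0349. Without any other single library none passed, and the 7 pairs that passed with all libraries had an exact adjusted p of 0.0524 to 0.1164. Without an Arhgef11Sglt2 library, so few splits remain that a pair could pass only if all 11 had the smallest exact p. Of the 24 list medians, 11 changed sign without 1 library and 10 others moved by over 1.5 times.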
